A study of Mus musculus with 61 samples.

Results

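The comparison concerns C3H/HeJ against DBA/2J, a pair of inbred mouse strains that stand close to each other among the 6 strains of the series. Its members are the 11 arrays whose sample titles begin with C3H/HeJ and the 10 whose titles begin with DBA/2J, which makes 21 of the 61 arrays. The animals of both strains were inbred males of 8 weeks that came from the same supplier and lived alone for 1 week before dissection. From each strain 5 regions were taken, which were the bnst (short for bed nucleus of the stria terminalis), the hippocampus, the hypothalamus, the periaqueductal gray (pag) and the pituitary gland. For C3H/HeJ the bnst was measured on 3 arrays and every other region on 2, and for DBA/2J all regions were measured on 2. In both strains an array held tissue of 2 or 3 mice for the bnst, 1 mouse for the hippocampus, 2 mice for the hypothalamus or the pag, and 5 mice for the pituitary gland, and replicates came from independent animals. RNA was measured on Affymetrix mouse genome 430 2.0 arrays, whose probe sets each report 1 background-corrected and scaled signal in arbitrary units. The question addressed is which genes differ between the strains in every region and which in a single region.

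An inbred strain is nearly homozygous, so that a regulatory allele it carries is present in every tissue of every animal, and a variant in an enhancer used by 1 cell type can change a transcript in that tissue alone. C3H/HeJ is known for a missense variant of the endotoxin receptor gene Tlr4 and for retinal degeneration, and DBA/2J for the dilute coat color allele of Myo5a and for pigment dispersion in the eye. The strains also carry different haplotypes of the major histocompatibility complex (MHC), called k in C3H/HeJ and d in DBA/2J. The bnst and the hypothalamus hold neurons that govern stress and hormone release, the pag lies around the midbrain aqueduct, and the pituitary gland is an endocrine organ that contains few neurons. A sequence difference between strains under the probes can also change a signal, and its part in the values below was not tested.

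The arrays had mean signals of 187 to 197 and median signals of 42.6 to 62.7, and arrays of 1 group correlated with r of 0.955 to 0.987. The pituitary and hippocampal dissections carried their defining transcripts in both strains. Summed signals of 6 pituitary hormone genes were 52880 and 54040 in C3H/HeJ pituitary glands and 43910 and 47690 in DBA/2J pituitary glands, and summed signals of 8 markers of hippocampal principal neurons were 9337 and 10550 in C3H/HeJ hippocampus and 8414 and 8519 in DBA/2J hippocampus. Some arrays stood apart. Replicate 2 of the C3H/HeJ pituitary gland held myelin transcripts, with a summed signal of 5825 over 8 oligodendrocyte markers against 808 in replicate 1 and 676.5 and 579.5 in DBA/2J pituitary glands. Mbp, the myelin basic protein gene, had signals of 60.2 and 3414 in C3H/HeJ pituitary glands and 48.2 and 69.8 in DBA/2J pituitary glands. In replicate 3 of the C3H/HeJ bnst the summed signal of 7 choroid plexus markers was 349.6, against 8821 and 6431 on the other 2 arrays and 6964 and 8443 in DBA/2J bnst, and in replicate 2 of the C3H/HeJ pag that of the 6 pituitary hormone genes was 1560, against 207.7 in replicate 1 and 258.6 and 270.6 in DBA/2J pag. Replicate 1 of the C3H/HeJ pag was 1 of the pair with the lowest correlation and had the highest median signal. In the bnst, 3 of 5 markers of striatal neurons were lower in C3H/HeJ, against 2.03% of all probe sets lower there. Their summed signals were 1217 to 1919 in C3H/HeJ and 1965 and 2670 in DBA/2J. The bnst arrays also held thalamic transcripts. Summed signals of 7 thalamic markers were 5826, 8899 and 3750 in C3H/HeJ bnst and 5255 and 5572 in DBA/2J bnst. In the other regions of both strains they were 386 to 1366. In bulk tissue, fewer cells of a type and less RNA per cell cannot be told apart.

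Between the strains, 3700 of 44065 probe sets (8.4%) were called in the mean over the 5 regions, of which 1848 were higher in C3H/HeJ (4.19%) and 1852 lower (4.2%). A call here means an adjusted p under 0.05 in limma, fitted to log2 signals of all 61 arrays with a mean for each strain and region, and every log2 difference below is C3H/HeJ minus DBA/2J. Signals under 12.78 were raised to that floor before logarithms were taken, so that a difference is a bound on its size in a region where all arrays of 1 strain lay below it, and a mean over regions is understated where this holds in some of them. Of the called probe sets, 456 differed more than 2-fold. When each array was scaled to 1 common median, 1064 were higher and 2643 lower, so that the share of calls that were higher moved to 28.7% from 49.9%, and the median difference over all probe sets was -0.03, against 0.03 as deposited. The pituitary gland held the most calls, 6.93% of probe sets, with 1676 higher (3.8%) and 1379 lower (3.13%). The bnst followed with 4.28%, 990 higher (2.25%) and 895 lower (2.03%). The hypothalamus had 2.74%, 511 higher (1.16%) and 695 lower (1.58%), the pag 2.48%, 529 higher (1.2%) and 563 lower (1.28%), and the hippocampus 2.03%, 438 higher (0.994%) and 455 lower (1.03%). With each array scaled to 1 common median, the pituitary gland had 773 higher and 1604 lower (32.5% of its calls higher, against 54.9% as deposited) and the bnst 485 higher and 1057 lower (31.5%, against 52.5%), so that the majority direction turned in both. The bnst had 5 arrays and each other region 4. With replicate 2 of the C3H/HeJ pituitary gland and replicate 1 of the C3H/HeJ pag left out, the pituitary gland had fewer calls than the bnst. The order of these regions therefore depended on these arrays, and the fit leaves 1 array in both groups. The pituitary count also fell without replicate 1 of the DBA/2J pituitary gland. Without replicate 3 of the C3H/HeJ bnst 1960 were called in the bnst.

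**Figure D1:**
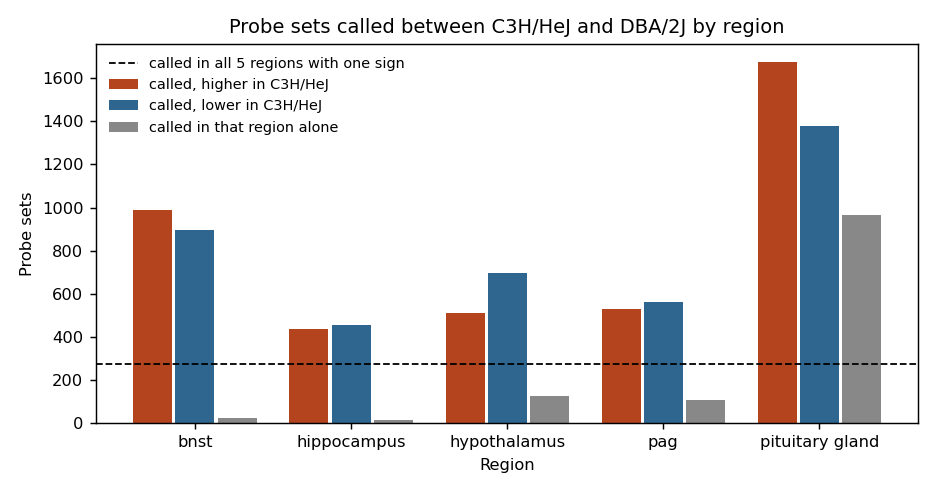
Probe sets called between C3H/HeJ and DBA/2J in each region (bars, number of probe sets on the vertical axis), higher or lower in C3H/HeJ, and called in that region alone, and the dashed line marks the 273 probe sets called in all 5 regions with one sign. The pituitary gland has the tallest bars of each kind, with 963 probe sets called there alone.

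A set of 273 probe sets (0.62%), which name 174 genes, differed in every one of the 5 regions with the same sign, 144 of them higher (0.327%) and 129 lower (0.293%) in C3H/HeJ, against 88 higher and 118 lower with each array scaled to 1 median. Their absolute log2 differences ran from 0.36 to 4.68 with a median of 1.51, and 197 of them reached 1. For 162 of the 273, all 11 C3H/HeJ signals lay on one side of all 10 DBA/2J signals, a separation that 254 of all probe sets (0.576%) showed. A difference of the same sign was not always of the same size, since 51 of the 273 passed the F test of a difference between regions, against 1789 of all probe sets (4.06%). By contrast, 1225 probe sets (2.78%) were called in 1 region, in none of the other 4, and differed there from the mean of the other 4, and 130 (0.295%) were called in opposite directions in 2 regions.

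Among the genes higher in C3H/HeJ in all regions, 12 with the largest differences included a noncoding RNA, metabolic enzymes and signaling proteins. Snhg14, a long noncoding RNA of the imprinted region that also holds Ube3a, had signals of 86.6 to 777 (median 638) in C3H/HeJ and 2.48 to 58.0 (median 36.3) in DBA/2J. The 2 sets of arrays did not overlap, and the mean log2 difference was 3.82 (standard error, SE, of 0.10, limma adjusted p = 5.44e-26). It was largest in the bnst, at 5.23, and smallest in the pituitary gland, at 2.84, where the C3H/HeJ signals of 97.0 and 86.6 were themselves the lowest of that strain. Its 2 other probe sets did not pass the test. Adi1, an enzyme of methionine salvage, had signals of 128 to 576 in C3H/HeJ and 5.09 to 27.7 in DBA/2J, a difference of 3.61 (SE 0.12, limma adjusted p = 1.08e-22). Another Adi1 probe set went the other way at -0.46 and the last was higher at 0.82. The size and sign therefore differed between probe sets, and the cause was not tested. Phgdh, which catalyzes the first step of serine synthesis, had signals of 197 to 848 in C3H/HeJ and 24.4 to 72.9 in DBA/2J by its most different probe set. That difference was 3.58 (SE 0.11, limma adjusted p = 1.34e-24), while its 3 other probe sets gave 0.77, 0.30 and 0.32.

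Casp9, the initiator caspase of the mitochondrial death pathway, had signals of 56.3 to 149 in C3H/HeJ, while all 10 DBA/2J arrays lay at the floor, with raw signals up to 3.51. The difference was therefore a lower bound, at least 7.45-fold (adjusted p = 6.71e-31, limma). Both other Casp9 probe sets were also higher, the more different one at 1.16. For Sbsn, a secreted protein of stratified epithelia, 2 probe sets gave 3.39 and 3.21, another was not called, and the signals of the most different one were 77.3 to 200 in C3H/HeJ and -4.24 to 23.1 in DBA/2J. The kinase gene Mapk14 was higher by 3.60 with 1 probe set, with signals of 72.0 to 210 in C3H/HeJ and -12.6 to 15.6 in DBA/2J. Of its 5 other probe sets 4 did not pass the test, and the fifth was lower at -1.20. The rest of the 12 were 1500004A13Rik, Atxn1, the carbohydrate kinase Fggy, the Rac exchange factor Prex2, Ggnbp2 and 4632415L05Rik, with differences of 2.40 to 3.04. All 12 separated the 11 C3H/HeJ arrays from the 10 DBA/2J arrays.

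Lin7c, a scaffold protein of synapses and epithelial junctions, was the most different gene that was lower in C3H/HeJ. Its signals were 12.3 to 123 (median 19.2) in C3H/HeJ and 418 to 994 (median 553) in DBA/2J, a difference of -4.68 (SE 0.18, limma adjusted p = 5.21e-21). The groups did not overlap, and the C3H/HeJ value of 123 was a single pituitary array, the other being 15.98. All 3 other Lin7c probe sets were lower as well, at -3.71, -2.32 and -0.94. Stab2, a scavenger receptor that takes up hyaluronan, had signals of 18.1 to 120 in C3H/HeJ and 104 to 998 in DBA/2J, with a difference of -3.27 (SE 0.17, limma adjusted p = 4.31e-17). The overlap came from the C3H/HeJ pituitary glands, at 120 on both arrays, and 1 DBA/2J hippocampus array at 104, and within each region DBA/2J was higher on every array.

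Pisd-ps3, a pseudogene of phosphatidylserine decarboxylase, had signals of 50.3 to 123 in C3H/HeJ and 554 to 1451 in DBA/2J, and its 4 other probe sets were lower too, at -1.60 to -2.80. Where a pseudogene resembles its parent gene, a signal cannot be assigned to it alone. The succinate dehydrogenase subunit Sdha was probed with unequal results, since 1 probe set differed by -2.47, with signals of 2.80 to 25.5 in C3H/HeJ and 61.9 to 111 in DBA/2J, while a brighter one with a median signal of 1886 in C3H/HeJ and 2288 in DBA/2J differed by -0.32. The chaperone Hspa13 was lower at -2.52 and -1.71 and higher at 1.13 and 0.52 by its 4 probe sets. The remaining genes of the 12 with the largest lower values were H2-D1, H2-K1, 4933439C10Rik, Tnik, AI506816, Rgs5 and Pde7a, at -2.35 to -4.39. Over the 24 genes, the probe sets other than the most different one numbered 63, of which 33 were called in the mean with the same sign, 6 with the opposite sign and 24 were not called.

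**Figure D2:**
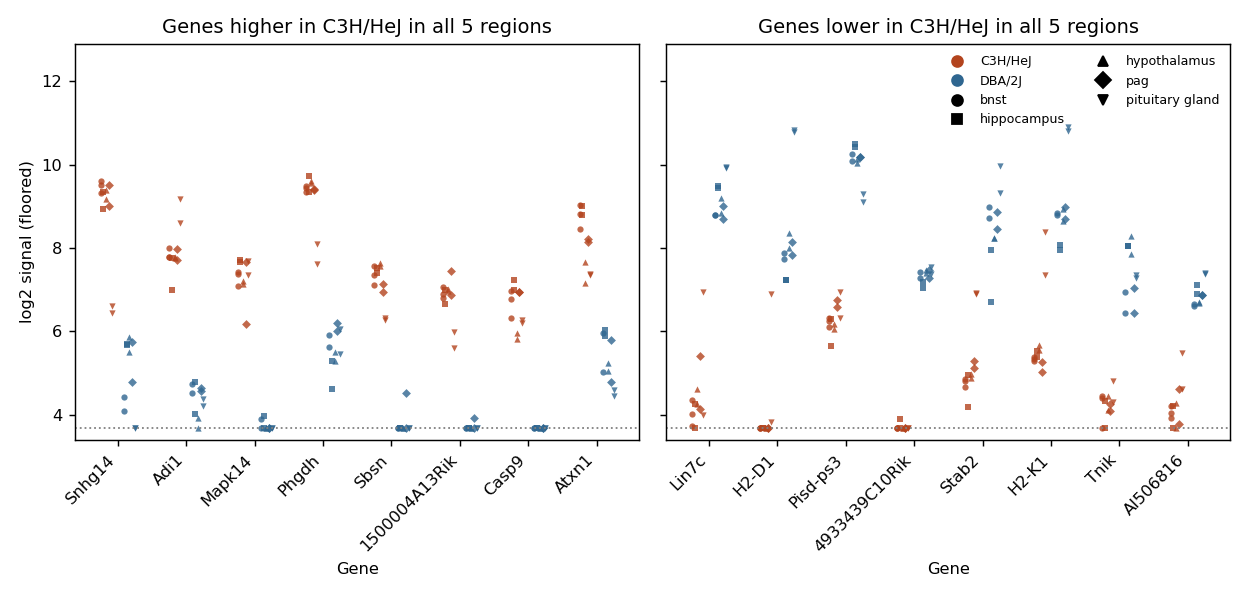
Signals of 8 genes higher (left) and 8 genes lower (right) in C3H/HeJ in all 5 regions, 1 point per array on a log2 scale with values under the floor (dotted line) raised to it, C3H/HeJ left of DBA/2J and the shape of a point giving its region. Every C3H/HeJ point of the left panel lies above the DBA/2J points of its gene, and in the right panel Stab2 and H2-K1 are the genes whose groups overlap, through the pituitary gland or the hippocampus.

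The other 4 strains of the series showed which of the pair stood apart. Of the 197 probe sets that differed in all 5 regions by at least 1 on the log2 scale, all 4 other strains lay nearer to C3H/HeJ in 64, of which 49 were higher in C3H/HeJ than in DBA/2J, and all 4 lay nearer to DBA/2J in 23, of which 8 were higher in C3H/HeJ. In the others the 4 strains were split. A/J lay nearer to C3H/HeJ in 138 of the 197, C57BL/6J in 116, FVB/NJ in 115 and 129S6/SvEvTac in 113. Snhg14 had a mean log2 signal of 8.74 in C3H/HeJ, 4.91 in DBA/2J and 8.67 to 8.98 in the other strains, so that DBA/2J was the low one. Lin7c had 4.54 in C3H/HeJ, 9.21 in DBA/2J and 9.12 to 9.21 in the others, and Casp9 had 6.57 in C3H/HeJ and lay at the floor of 3.68 in the other 5. Stab2 was high in DBA/2J at 8.55, against 5.28 in C3H/HeJ and 4.52 to 5.52 elsewhere. These sides are descriptions and were not tested.

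The MHC encodes class I molecules, which present peptides from inside the cell and pair with beta-2 microglobulin, and class II molecules of antigen-presenting cells. Of 28 genes of the MHC and antigen presentation list, 19 were measured. In the mean over regions 9 were lower in C3H/HeJ and none was higher, against 4.2% of all probe sets lower. The median of the list was -0.21, against 0.03 over all probe sets. Each list gene was given by its brightest probe set. Over 17800 genes counted by their brightest probe set, 997 were lower and 683 higher. H2-K1, a classical class I gene on chromosome 17, had signals of 39.1, 41.6 and 40.5 in C3H/HeJ bnst and 456 and 442 in DBA/2J bnst. In the pituitary gland it had 337 and 163 in C3H/HeJ and 1794 and 1923 in DBA/2J. Both strains were brightest in the pituitary gland, and the mean difference was -3.18 (SE 0.09, limma adjusted p = 8.69e-25). H2-D1, the other classical class I gene measured, differed by -1.53 with its brightest probe set, whose signals were 119 to 759 in C3H/HeJ and 231 to 2167 in DBA/2J. Of 9 probe sets of H2-D1, 7 were lower, 1 was higher at 1.49 and 1 was not called, and of 4 of H2-K1, 3 were lower and 1 was not called. Most of these probe sets are of a type that can hybridize to several class I transcripts. Their signals therefore cannot be assigned to 1 gene with certainty. The H2-K1 probe set had mean log2 signals of 5.88 in C3H/HeJ, 6.43 in A/J and 8.97 to 9.11 in the others. The H2-D1 probe set at -4.39 had 8.40 in DBA/2J, 8.10 in A/J and 3.68 to 4.01 in the others. The brightest H2-D1 probe set had 7.67 in C3H/HeJ and 9.02 to 10.3 in the others. The part of haplotype sequence under the probes in these values was not tested.

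The promoters of both class I genes are shown because they moved together in all regions. The windows are the 250 bases before the RefSeq transcript start in build GRCm38.p6, whose sequence is that of C57BL/6J and of neither strain compared, with the longest run of letters common to both in capitals.
H2-K1, chr17:34000334-34000583, minus strand: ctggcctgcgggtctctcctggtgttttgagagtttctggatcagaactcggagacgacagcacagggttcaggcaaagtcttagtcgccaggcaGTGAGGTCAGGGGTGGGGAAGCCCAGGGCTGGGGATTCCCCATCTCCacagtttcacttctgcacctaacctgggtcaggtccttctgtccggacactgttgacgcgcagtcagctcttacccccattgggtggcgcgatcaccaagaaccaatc
H2-D1, chr17:35262844-35263093, plus strand: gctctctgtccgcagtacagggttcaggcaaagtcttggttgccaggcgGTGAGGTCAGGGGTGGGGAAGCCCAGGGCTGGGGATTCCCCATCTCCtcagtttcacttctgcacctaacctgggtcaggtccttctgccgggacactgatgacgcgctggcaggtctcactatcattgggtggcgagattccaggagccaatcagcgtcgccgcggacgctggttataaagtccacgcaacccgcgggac
The run has 47 bases and begins 155 bases before the start of H2-K1 and 201 bases before that of H2-D1. On either strand, 3 of 32851 promoter windows of that length (0.00913%) hold it. The run was read from the windows shown, and the count includes them, so that its rarity tests nothing. A match describes the letters and does not show binding.

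Other members of the list that were lower included class II genes and their partners. H2-Ab1, a class II beta chain, had signals of 7.38 to 118 in C3H/HeJ and 22.6 to 271 in DBA/2J, a difference of -1.09 (SE 0.19, limma adjusted p = 8.49e-05), and of the single regions the hippocampus was called. H2-DMa, which loads peptides on class II, had 19.4 to 69.9 in C3H/HeJ and 43.8 to 102 in DBA/2J, at -1.03. H2-Ea, the class II E alpha chain, differed by region (F test, adjusted p = 1.34e-09). It had 27.7 and 3.44 in C3H/HeJ pituitary glands and 268 and 190 in DBA/2J pituitary glands, at -3.58, and was called in the hypothalamus, where both C3H/HeJ arrays lay under the floor, as lower by at least 1.58, but not in the bnst, hippocampus or pag. The non-classical H2-M3, the enzyme gene H2-Ke6, B2m and the chaperone gene Tapbp were lower by smaller amounts, at -0.57, -0.45, -0.25 and -0.21. With arrays scaled to 1 median 9 members were lower, and after quantile normalization 8, with none higher in either. At an unadjusted p under 0.05 in limma, 9 were lower and 0 higher. Summed signals of 9 markers of microglia, which can express class II, were 968 and 840.0 in C3H/HeJ pituitary glands and 889 and 879.7 in DBA/2J pituitary glands. Of these markers 1 was called higher there and 1 lower. The part of cell numbers in the class II values was not tested.

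Glutathione and antioxidant enzymes, which conjugate and detoxify reactive compounds, formed another list whose members called in the mean were all lower in C3H/HeJ. Of 34 measured, 8 were lower, none was higher and 26 did not pass the test, against 4.2% of all probe sets lower. By the brightest probe set of each gene, as in the list, 997 of 17800 genes were lower and 683 higher. The median of the list was -0.09, against 0.03 over all probe sets. In the pituitary gland 1 member was higher and 5 were lower, against 3.8% of all probe sets higher there and 3.13% lower. After either other scaling none was higher there. Gstm6, a mu class transferase, had signals of 64.3, 52.6 and 78.1 in C3H/HeJ bnst and 130 and 134 in DBA/2J bnst, and 133 and 137 in C3H/HeJ hypothalamus and 286 and 279.5 in DBA/2J hypothalamus. The groups did not overlap in these regions, and hypothalamic separation was seen for 42.8% of all probe sets. The mean over regions was -1.01 (adjusted p = 9.7e-11 in limma, standard error 0.09). Mgst3, a microsomal transferase, had 563 and 580.5 in C3H/HeJ hippocampus and 933 and 950.2 in DBA/2J hippocampus, and 182 and 170 in C3H/HeJ pituitary glands and 207 and 177 in DBA/2J pituitary glands. Its mean difference was -0.52 (SE 0.06, limma adjusted p = 1.14e-08), and it was called in the bnst, hippocampus and hypothalamus. Gstt2, Mgst1, Gstt1, Gstm1, Gstz1 and Gstp1 were lower by 0.42, 0.39, 0.27, 0.24, 0.24 and 0.13. After scaling to 1 median 9 members were lower, and after quantile normalization 7, with none higher in either, and at an unadjusted p under 0.05 in limma 13 were lower and 2 higher.

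**Figure D3:**
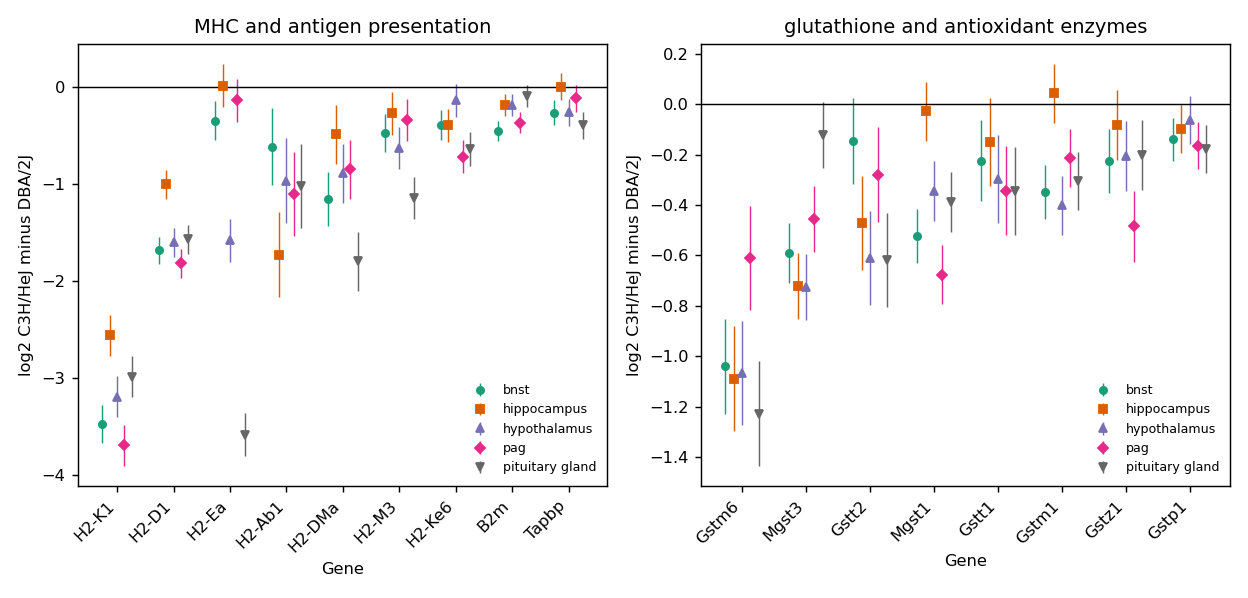
Log2 differences (C3H/HeJ minus DBA/2J, points with standard errors) in each of the 5 regions for the members called in the mean over regions of the MHC list (left, 9 genes) and of the glutathione and antioxidant list (right, 8 genes). Most points lie below 0, and H2-Ea departs most from 0 in the pituitary gland, at -3.58.

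Of 22 interferon-induced genes measured, 17 did not pass the test, 2 were higher and 3 were lower, against 4.19% of all probe sets higher and 4.2% lower. Xaf1, a proapoptotic partner of the inhibitor XIAP, had signals of 15.9 to 79.1 (median 29.8) in C3H/HeJ and 95.5 to 403 (median 113) in DBA/2J, a difference of -2.17 (SE 0.19, limma adjusted p = 5.2e-11). DBA/2J was higher on every array of each region, and in the pituitary gland the signals were 48.9 and 29.8 in C3H/HeJ against 396 and 403 in DBA/2J. The guanylate binding proteins went apart, with Gbp2 at -0.64 and Gbp3 at 0.52. Oas2 was higher at 0.63 and Ifi27 lower at -0.41.

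Of 18 measured genes in which inbred strains are known to carry DNA variants, 3 were higher, 1 was lower and 14 did not pass, against 4.19% of all probe sets higher and 4.2% lower. Myo5a, the myosin that carries melanosomes and is disrupted by the dilute allele of DBA/2J, had signals of 590 to 1862 in C3H/HeJ and 424 to 1119 in DBA/2J. It was higher by 0.51 (SE 0.04, limma adjusted p = 1.73e-11), and was called in all regions except the pag. Mpdz, a scaffold protein gene, was higher at 0.24, the cadherin gene Cdh23 at 0.57, and the heme enzyme gene Alad was lower at -0.21. After either other scaling 2 were higher. Tlr4 had median signals of 21.9 in C3H/HeJ and 25.1 in DBA/2J, and its difference of 0.12 (standard error 0.34) did not pass. Of 13 genes of TLR4 signaling, Cd14, the coreceptor for endotoxin, was lower at -0.72 and Rela at -0.17, and none was higher, also at an unadjusted p under 0.05, where 5 were lower.

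Of 22 clock and melatonin genes, Npas2, Per1 and Dbp were lower in the mean, at -0.72, -0.43 and -0.22, and none was higher, where 4.2% of all probe sets were lower. At an unadjusted p under 0.05 in limma 5 were lower and 1 higher. In the pituitary gland, where 3.13% of all probe sets were lower, Per1, Nr1d1 and Dbp were lower at -1.12, -1.08 and -0.85. Per1, a repressor of the clock, had signals of 348 and 210 in C3H/HeJ pituitary glands and 755 and 456 in DBA/2J pituitary glands. Without replicate 2 of the C3H/HeJ pituitary gland, Dbp remained called at -1.04, while Per1 at -0.76 (adjusted p = 0.116) and Nr1d1 at -1.16 (adjusted p = 0.0884, limma) did not pass. Dissections ran over several hours of the day, and the hour of each array is not given in the sources used here. No immediate early gene of 11 and no GABA-A receptor subunit of 12 was called in the mean by limma. At an unadjusted p under 0.05, 1 of the immediate early genes was lower and 0 of the GABA-A subunits differed.

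Among 14 ionotropic glutamate receptor subunits, 1 was higher and 4 were lower in the pituitary gland, against 3.8% of all probe sets higher there and 3.13% lower. Gria4, an AMPA receptor subunit, was lower in the mean at -0.74 (SE 0.05, limma adjusted p = 1.14e-14), with signals of 102 and 75.7 in C3H/HeJ pituitary glands and 277 and 300.2 in DBA/2J pituitary glands. In the hypothalamus it had 488 and 469 in C3H/HeJ and 510 and 501 in DBA/2J, a difference of -0.08 that was not called, while the bnst, hippocampus and pag were called at -0.66, -0.50 and -0.75. In the pituitary gland Gria1, Gria2 and Grik5 were also lower, at -0.65, -0.51 and -0.63, and Grik1 was higher at 1.52. Over 14 subunits, 2 were higher and 1 was lower in the mean as deposited, against 0 higher and 1 lower after scaling to 1 median and 0 higher and 2 lower after quantile normalization. In the mean over regions, 4.19% of all probe sets were higher and 4.2% lower. Among 20 dopamine and serotonin genes, Ddc, which makes dopamine and serotonin from their precursors, was higher in the mean at 0.50. Slc18a2, the vesicular monoamine transporter, was higher at 0.28, while Maob was lower at -0.22. Of 18 hypothalamic neuropeptides, Cck was higher in the mean at 0.46 and none was lower, and at an unadjusted p under 0.05 in limma 2 were higher and 0 lower. Penk, the enkephalin precursor, was lower in the bnst at -1.04, where the striatal markers were lower too, and their part in this was not tested.

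Calls in the bnst alone numbered 20 (0.0454%) and calls in the hippocampus alone 12 (0.0272%). In the bnst the 3 genes with the largest fitted differences were higher in C3H/HeJ and dim. Birc7, an inhibitor of apoptosis, had signals of 63.0, 52.6 and 66.3 in C3H/HeJ bnst and 8.07 and 11.3 in DBA/2J bnst, a difference of at least 2.24 (SE 0.29, limma adjusted p = 1.41e-06) since both DBA/2J arrays lay under the floor, and its other regions lay between -0.10 and 0.40. Smtnl2 was higher by at least 2.22 for the same reason, with other regions between -0.16 and 0.43, and Uhrf2 at 2.18, with other regions between -1.10 and 0.69 that did not pass. Without replicate 3 of the C3H/HeJ bnst all 3 were still called, at 2.17, 2.35 and 2.18. Signals of the strains did not overlap in the bnst for 38.3% of all probe sets, so separation of the 5 arrays was common. In the hippocampus, Baiap2l1, which shapes actin protrusions, had 211 and 231 in C3H/HeJ and -4.27 and -2.60 in DBA/2J, and since both DBA/2J arrays lay at the floor the difference was at least 4.11 on the log2 scale (adjusted p = 1.44e-06, limma). Another Baiap2l1 probe set was called in the mean at 1.60, and by region both in the hippocampus and in the pituitary gland, there at 2.14 (adjusted p = 0.0102, limma), so that the gene was not called in the hippocampus alone by both probe sets. Hippocampal signals of the strains did not overlap for 38.2% of all probe sets. Ier5 had 48.4 and 56.0 in C3H/HeJ and 2.31 and 8.59 in DBA/2J, and Nfib was lower, with 12.5 and 16.3 in C3H/HeJ and 49.2 and 34.8 in DBA/2J. The other probe sets of Smtnl2 (1), Uhrf2 (1), Ier5 (2) and Nfib (6) were not called in the mean. A difference in 1 region is diluted in that mean, and the probe sets of Uhrf2 and Nfib given here were not called in it either.

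In the hypothalamus, 123 probe sets (0.279%) were called alone, 38 higher and 85 lower. Tshb, which encodes the beta subunit of thyroid stimulating hormone, had signals of 884 and 602 in C3H/HeJ and 98.5 and 54.2 in DBA/2J, a difference of 3.32 (SE 0.53, limma adjusted p = 6.98e-05). In the pituitary gland, its main source, it had 4196 and 3714 in C3H/HeJ and 4110 and 4618 in DBA/2J, with a difference of -0.14 that was not called. Leaving out single arrays gave hypothalamic differences of 2.89 to 3.75, all called. None of the 6 endocrine marker genes, which leave out Tshb, was called in the hypothalamus. The growth hormone gene Gh had 71.9 and 138 in C3H/HeJ hypothalamus and 1637 and 1144 in DBA/2J hypothalamus, the prolactin gene Prl had 19.4 and 26.5 in C3H/HeJ and 210.4 and 116 in DBA/2J, and Cga, the alpha subunit shared with thyroid stimulating hormone, had 493 and 460.5 in C3H/HeJ and 464 and 440.2 in DBA/2J. The summed signals of the 6 endocrine markers were 942 and 971 in C3H/HeJ hypothalamus and 2720 and 2082 in DBA/2J hypothalamus, and the part of pituitary tissue in these values was not tested. The somatostatin receptor gene Sstr1 had 4.09 and 8.08 in C3H/HeJ hypothalamus and 98.3 and 105 in DBA/2J hypothalamus, and was lower by at least 2.99 on the log2 scale, both C3H/HeJ arrays being under the floor. Ap2b1, a clathrin adaptor subunit, was lower there at -2.62, but it ranged from 274 to 1157 within the C3H/HeJ bnst, and the call was lost without either DBA/2J hypothalamus array or without replicate 2 of C3H/HeJ (adjusted p of 0.0632 to 0.136, limma), with differences of -2.43 to -2.65. Another Ap2b1 probe set was called in the hypothalamus at -1.78 (adjusted p = 0.0244, limma).

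In the pag, 107 probe sets (0.243%) were called alone, 47 higher and 60 lower. The 3 with the largest fitted differences were lower in C3H/HeJ, with no overlap of the strains in the pag, which 37.4% of all probe sets showed. Sag, the arrestin of photoreceptors and pineal cells, had 2.20 and 11.2 in C3H/HeJ pag and 51.9 and 90.0 in DBA/2J pag. It was lower by at least 2.42 on the log2 scale, both C3H/HeJ arrays being under the floor, and without replicate 2 of the DBA/2J pag the adjusted p was 0.111. Daw1, a factor of axonemal dynein assembly, had 9.27 and 13.3 in C3H/HeJ and 56.1 and 73.7 in DBA/2J, a difference of -2.30 (SE 0.31, limma adjusted p = 3.25e-06). 1110017D15Rik had 1.95 and 52.4 in C3H/HeJ and 116 and 159 in DBA/2J, and without replicate 1 of C3H/HeJ its difference of -2.39 became -1.37 (adjusted p = 0.442, limma), and without replicate 2 of DBA/2J it was -2.17 (adjusted p = 0.138, limma). Without replicate 2 of the C3H/HeJ pag, which held pituitary transcripts, all 3 were still called, and 448 probe sets were called in the pag alone.

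The pituitary gland held 963 probe sets called alone (2.19%), 535 higher and 428 lower, which name 787 genes. Fewer were called alone without replicate 2 of its C3H/HeJ arrays, and also without any other single pituitary array. Each of these fits leaves 1 array in a group. Alox12e, an epidermal lipoxygenase, had signals of 81.0 and 38.1 in C3H/HeJ pituitary glands and 712 and 543 in DBA/2J pituitary glands, and lay near the floor in the other regions of both strains. The difference was -3.48 (SE 0.34, limma adjusted p = 3.65e-09), and it was -2.94 without replicate 2. Rgs16, which shortens G protein signals, had 115 and 141 in C3H/HeJ pituitary glands and 11.9 and 19.5 in DBA/2J pituitary glands, at 3.01. It was also 1.30 in the bnst, where it did not pass the test (adjusted p = 0.0994, limma), and its 2 other probe sets were higher in the mean.

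The kallikreins, secreted serine proteases that cluster on chromosome 7, supplied the other leading gene of the pituitary gland. Klk1 had signals of 171 and 108 in C3H/HeJ pituitary glands and 13.95 and 12.5 in DBA/2J pituitary glands by 1 probe set, a difference of 3.35 (SE 0.23, limma adjusted p = 4.14e-13). Another Klk1 probe set had 149.5 and 112 in C3H/HeJ and 16.1 and 19.9 in DBA/2J, and the next had 108 and 89.8 in C3H/HeJ and 14.3 and 7 in DBA/2J. The fourth, which was not called, had 153 and 113 in C3H/HeJ and 103 and 125 in DBA/2J. Klk1b16 had 125 and 124 in C3H/HeJ pituitary glands and 25.8 and 17.2 in DBA/2J pituitary glands, at 2.57. Klk1b27 had 44.0 and 39.8 in C3H/HeJ and 2.87 and 5.30 in DBA/2J, both under the floor, and was higher by at least 1.71. Of 21 kallikrein probe sets, 5 were higher in the pituitary gland, against 3.8% of all probe sets, and Klk11 was lower at -0.55. The 5 include the Klk1 probe sets whose values led to the choice of this family, so that the count describes it and tests nothing. The genes are near-identical copies in part, so that signals of 1 may include another.

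The promoters of the 3 kallikreins that were higher in the pituitary gland are shown as the 250 bases before the RefSeq start in GRCm38.p6, with the longest run of letters common to all 3, CCTGGGAAGGTAT, in capitals.
Klk1, chr7:44225110-44225359, plus strand: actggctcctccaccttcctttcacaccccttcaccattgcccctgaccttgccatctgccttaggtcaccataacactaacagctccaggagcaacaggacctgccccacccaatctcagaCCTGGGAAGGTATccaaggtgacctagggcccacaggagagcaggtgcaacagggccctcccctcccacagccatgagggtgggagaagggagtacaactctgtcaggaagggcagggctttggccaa
Klk1b16, chr7:44137040-44137289, plus strand: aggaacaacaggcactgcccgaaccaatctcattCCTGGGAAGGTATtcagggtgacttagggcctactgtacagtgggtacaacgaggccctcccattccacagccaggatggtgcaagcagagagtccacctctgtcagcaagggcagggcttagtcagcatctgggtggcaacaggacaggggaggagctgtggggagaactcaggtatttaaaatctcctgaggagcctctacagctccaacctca
Klk1b27, chr7:44052040-44052289, plus strand: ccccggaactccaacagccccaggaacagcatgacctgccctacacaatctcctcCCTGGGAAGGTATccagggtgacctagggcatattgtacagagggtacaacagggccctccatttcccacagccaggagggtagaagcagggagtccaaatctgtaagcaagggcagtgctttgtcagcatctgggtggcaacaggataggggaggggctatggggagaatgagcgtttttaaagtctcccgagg
The run has 13 bases and starts 128, 216 and 195 bases before the starts of Klk1, Klk1b16 and Klk1b27. On either strand, 7 of 32851 windows (0.0213%) hold it. Here too the run was read from windows that are in the count, so that its rarity tests nothing.

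Markers of other cell types were measured in the pituitary gland, where 3.8% of all probe sets were higher and 3.13% lower. Of 10 GABAergic markers 1 was higher there and none was lower, of 8 oligodendrocyte markers 6 were higher, of 8 astrocyte markers Aldoc was lower at -0.37, and of 9 microglial markers 1 was higher and Csf1r was lower at -0.58, which did not pass without replicate 2 of C3H/HeJ (adjusted p = 0.113, limma). Gad2, which makes GABA, had 67.8 and 95.4 in C3H/HeJ pituitary glands and 5.16 and 21.2 in DBA/2J pituitary glands, at 2.29, and 2.04 without replicate 2, while Gad1, which makes GABA too, did not pass at -0.01. Ugt8a, an enzyme of myelin lipid synthesis, had 288 and 372 in C3H/HeJ pituitary glands and 87.5 and 52.2 in DBA/2J pituitary glands, at 2.28, and 2.09 without that array. The other 5 oligodendrocyte markers called there, Mbp, Mobp, Mog, Mag and Cldn11, did not pass without it, with adjusted p of 0.200 to 1 (limma). Cnp, another marker of the list, was not called with that array, at 0.21, and was called lower in C3H/HeJ without it, at -1.01 (adjusted p = 1.44e-05, limma). Cck, the cholecystokinin gene, had 42.0 and 41.6 in C3H/HeJ and 14.7 and 21.9 in DBA/2J, and Slc18a2 had 37.1 and 28.8 in C3H/HeJ and 10.7 and 7.85 in DBA/2J. Signals of the strains did not overlap in the pituitary gland for 54.3% of all probe sets. Of 20 pituitary hormones and regulators, Nr5a1, a factor of gonadotropes, was lower there with 128 and 115 in C3H/HeJ and 269 and 258 in DBA/2J, at -1.12, as were Gata2 at -0.72 and Trhr, the receptor for thyrotropin releasing hormone, at -0.95. Without replicate 2 of C3H/HeJ, Nr5a1 was still called at -1.04, and Gata2 at -0.69 (adjusted p = 0.144, limma) and Trhr at -1.04 (adjusted p = 0.0964, limma) did not pass. No hormone gene of the list was called in the pituitary gland.

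Of the 130 probe sets that were higher in C3H/HeJ in 1 region and lower in another, 87 had the pituitary gland on one side. Snhg11, a long noncoding RNA of neurons, was the clearest. It had 2019.6 to 3472 on the 9 C3H/HeJ arrays of brain regions and 665.5 to 1211 on the 8 DBA/2J arrays of brain regions, with differences of 0.98 in the pag to 1.92 in the hypothalamus. In the pituitary gland it had 38.1 and 39.3 in C3H/HeJ and 195 and 192 in DBA/2J, at -2.32 (SE 0.15, limma adjusted p = 1.67e-13). The only other Snhg11 probe set was not called in the mean, where opposite directions can cancel. Cartpt, a peptide precursor that acts on feeding and stress, had 1764 and 2121 in C3H/HeJ pag and 661 and 935 in DBA/2J pag, at 1.30. In the pituitary gland it had 60.9 and 42.8 in C3H/HeJ and 545 and 238 in DBA/2J, at -2.82, and in the hypothalamus 1228 and 1130 in C3H/HeJ and 1356 and 1312 in DBA/2J, which was not called. Without replicate 1 of the C3H/HeJ pag the adjusted p of the pag difference was 0.0733.

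Other genes with opposite directions moved less. Ndrg1, a stress-induced gene of myelinating cells and epithelia, had 581 and 674 in C3H/HeJ pituitary glands and 313 and 284 in DBA/2J pituitary glands, at 1.07, and was lower in the bnst at -0.50. Its 4 other probe sets were not called in the mean, and neither was this one, at 0.04. Opposite directions cancel in a mean, so that this does not show whether the other probe sets share the pattern. Ctso, a cysteine protease gene, was higher in the bnst, hippocampus and hypothalamus at 0.31, 0.41 and 0.35 and lower in the pituitary gland at -0.69. Kifap3, a kinesin adaptor, was higher in the bnst and pag at 0.72 and 0.69 and lower in the pituitary gland at -0.88. Pdap1 was lower in the hypothalamus at -1.11, with 111 and 92.9 in C3H/HeJ and 225 and 214 in DBA/2J, and higher in the bnst, pag and pituitary gland at 0.75, 0.83 and 0.97. Pof1b was near the floor on most arrays, at 0.34 in the pag and -1.21 in the pituitary gland. Among GABA-A subunits, Gabre was higher in the bnst at 1.12 and lower in the hypothalamus at -1.29.

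**Figure D4:**
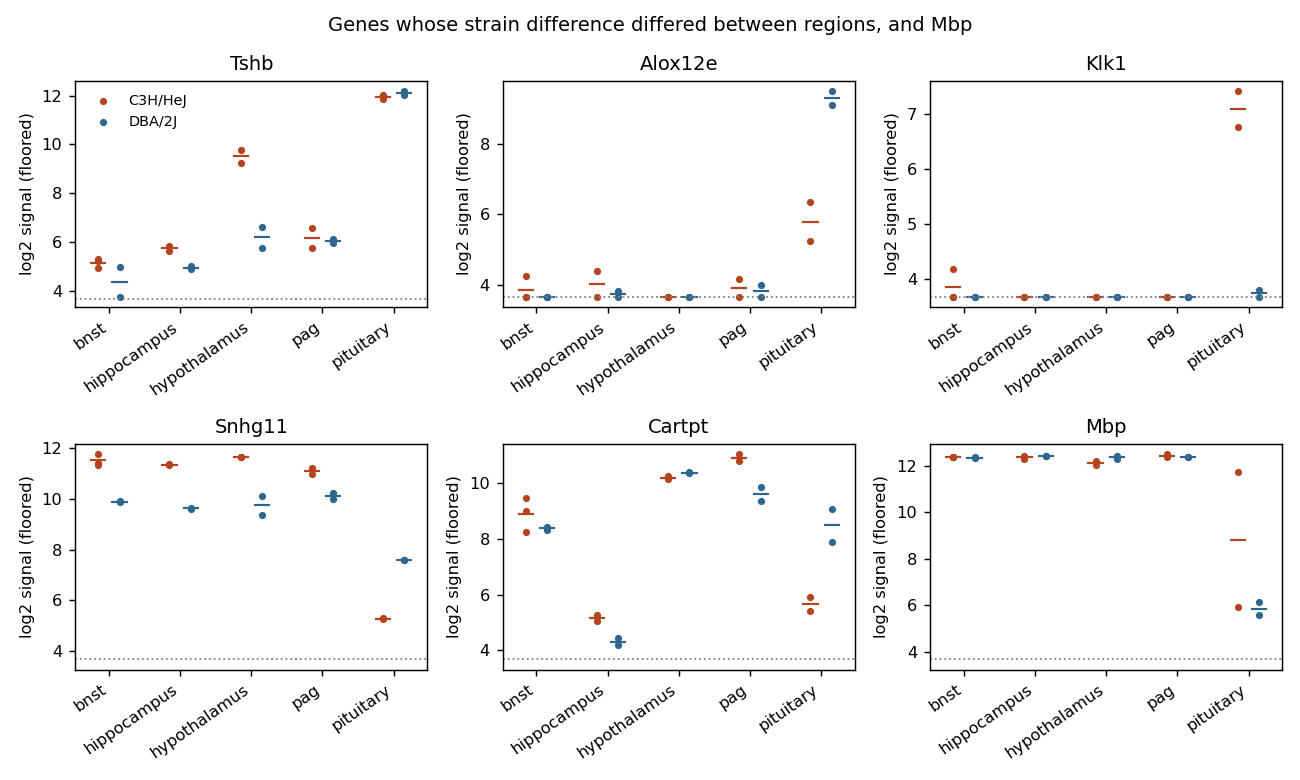
Signals of 6 genes by region on a log2 scale, 1 point per array with a short line at the group mean, C3H/HeJ left of DBA/2J, and a dotted line at the floor. Tshb differs in the hypothalamus, Alox12e and Klk1 in the pituitary gland, Snhg11 and Cartpt change direction between regions, and Mbp shows the 1 C3H/HeJ pituitary array with a signal of 3414.

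Set against the other pairs of strains, C3H/HeJ and DBA/2J did not have the fewest differences. Of the 15 pairs, A/J and FVB/NJ had 3132 probe sets called in the mean over regions, C3H/HeJ and DBA/2J came second with 3700, and A/J and C57BL/6J had the most, 9671. By calls over 2-fold, A/J and C3H/HeJ had 411, ahead of C3H/HeJ and DBA/2J with 456. By the median absolute log2 difference the pair ranked 3 of 15, at 0.11. The pairs share arrays, so these counts were not tested against each other.

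**Figure D5:**
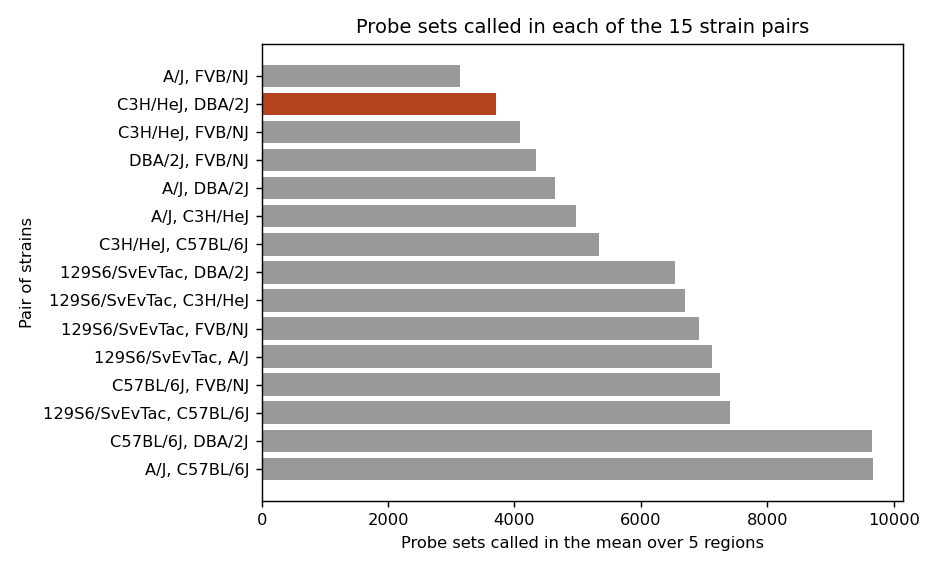
Probe sets called in the mean over 5 regions (horizontal axis, number of probe sets) in each of the 15 pairs of strains, with C3H/HeJ and DBA/2J in color. The pair is second from the top with 3700 probe sets, after A/J and FVB/NJ with 3132.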

How the data were processed

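RNA of 5 regions from C3H/HeJ and DBA/2J mice was hybridized to Affymetrix arrays, and the deposited values are signal intensities that the authors obtained with TeraGenomics, 1 per probe set, corrected for background and scaled for each array on a linear scale. The version and the scaling target are not given in the sources used here, and 5.36% of values were below 0. Signals under 12.78, the 20th percentile, were raised to it and log2 was taken, which shrinks differences of dim genes. Of 45037 probe sets, 972 at the floor on every array were left out, as were 64 controls. The 30 group means of strain and region were fitted over 61 arrays with limma 3.58.1 in R 4.3.3 (lmFit, eBayes with trend, two-sided), and p-values were adjusted by Benjamini-Hochberg over 44065 probe sets. With 2 or 3 arrays a group, the number of arrays limits the precision. Probe sets were named through the platform annotation: 34945 had 1 gene, 932 several and 9160 none, and 34741 matched RefSeq. Named were the 12 genes most different each way in all regions, the 3 most different in each region alone, the 6 with opposite directions and the smallest F test p, their other probe sets, and members of the lists. Each list gene was given by its brightest probe set, while the percentages set beside the lists are over all probe sets. Kallikreins and class I probe sets were added after their values were seen. The members and lists were chosen with earlier results of these data known. The fit was tested on simulated data. Alternatives were another floor, no logarithm, scaling to 1 median, quantile normalization, a signal filter, no trend, the 21 arrays alone, a replicate block and leaving out single arrays. Promoter sequences came from RefSeq for GRCm38.p6.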

Additional observations from a re-analysis of the deposited data

Results flagged for a closer look

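The difference between C3H/HeJ and DBA/2J was unequal among the 5 regions for 43 genes described above or held in the lists. The test was the F test of limma with adjustment over all probe sets, which 4.06% of probe sets passed. Among genes that differed in all 5 regions, the adjusted p was 9.13e-05 for Snhg14, 0.0359 for Adi1, 0.000121 for Phgdh, 0.00688 for 1500004A13Rik, 4.7e-05 for Casp9, 0.001999 for Prex2, 0.00507 for 4632415L05Rik, 0.000767 for Pisd-ps3 and 0.00877 for Tnik, and these kept one sign and differed in size. Snhg14 was 5.23 in the bnst and 2.84 in the pituitary gland on the log2 scale, and Phgdh was 4.59 in the hippocampus and 2.11 in the pituitary gland.

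For genes called in the bnst or hippocampus alone, the adjusted p was 0.00243 for Birc7, 0.0269 for Smtnl2, 0.00798 for Uhrf2, 0.00324 for Baiap2l1, 0.00604 for Ier5 and 0.00997 for Nfib. In the hypothalamus or pag alone it was 0.0175 for Tshb, 0.000474 for Sstr1, 0.00347 for Ap2b1 and 0.00035 for Daw1, and in the pituitary gland alone 4.77e-06 for Alox12e and 4.44e-09 for Klk1. These genes were chosen as called in 1 region, so that the test is a description of them.

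For genes with opposite directions it was 5.55e-16 for Snhg11, 1.8e-09 for Pof1b, 2.39e-07 for Ndrg1, 5.79e-07 for Ctso, 6.52e-07 for Kifap3 and 1.35e-06 for Pdap1, again after choice by this test. Among members of the lists it was 1.34e-09 for H2-Ea, 0.0171 for Dbp, 0.00458 for Gabre, 0.00426 for Gria1, 0.0209 for Gria2, 1.71e-07 for Gria4, 0.0457 for Grin2b, 0.0385 for Grik1 and 0.0377 for Grik5. Among transmitter, peptide and pituitary genes it was 0.000675 for Slc18a2, 2.8e-06 for Cartpt, 0.0228 for Penk, 0.0233 for Cck and 0.00663 for Nr5a1. For the marker genes Ugt8a and Gad2, 8.81e-06 for Ugt8a and 4.76e-05 for Gad2, both were higher in C3H/HeJ in the pituitary gland, where replicate 2 held myelin transcripts and its part in the F test was not tested.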

How the results depend on the processing

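Of 1416 values of the 45 named genes under alternatives, 1398 kept their direction and side of the threshold. Of the others 18 fell short of the threshold and 0 changed direction. The genes were chosen by their values in these same data, so that agreement was likely. For each gene 1 difference was followed, and whether the gene stayed in its class of regions was not counted. Counts moved by more than 1.5 times as follows, and the cause was not tested. With the 21 arrays alone, 40 probe sets were called in the hypothalamus alone, 76 in opposite directions and 821 by the F test. A floor at the 10th percentile left 4 in the hippocampus alone, and one at the 40th gave 45, 39, 193, 207 and 1598 in the bnst, hippocampus, hypothalamus, pag and pituitary gland alone. Without logarithms there were 106, 93 and 1600 in the bnst, hippocampus and pituitary gland alone and 2785 by the F test. Scaling to 1 median gave 1064 higher in the mean, 776 in the hypothalamus, 654 in the pag, 88 higher in all 5 regions, 50, 27 and 522 in the hypothalamus, pag and pituitary gland alone, 41 in opposite directions and 778 by the F test. Quantile normalization gave 21 in the hippocampus alone, and the filter at 4 times the floor 219 in opposite directions. Without the test against the other regions, which drops a condition, 856, 167, 382, 387 and 2095 were called alone in the 5 regions in the order above. An alternative chosen after seeing the data left out replicate 2 of the C3H/HeJ pituitary gland and replicate 1 of the C3H/HeJ pag, and gave 1822 in the pituitary gland, 585 there alone, 74 in opposite directions and 1176 by the F test. Leaving out single arrays gave 1482 to 2126 higher and 1544 to 2125 lower in the mean, both lowest without replicate 1 and highest without replicate 2 of the C3H/HeJ hippocampus. The regional counts ran from 840 (without replicate 2 of the DBA/2J bnst) to 2056 in the bnst, from 509 (without replicate 2 of the DBA/2J hippocampus) to 939 in the hippocampus, from 537 (without replicate 2 of the C3H/HeJ hypothalamus) to 1298 in the hypothalamus, from 666 (without replicate 1 of the DBA/2J pag) to 1373 in the pag and from 1545 (without replicate 1 of the DBA/2J pituitary gland) to 3221 in the pituitary gland. In all 5 regions 114 to 152 were higher and 106 to 129 lower, and 220 to 269 of the 273 were shared. Calls in 1 region alone ran from 3 to 55 in the bnst (without its C3H/HeJ replicates 2 and 1), from 10 to 116 in the hippocampus (highest without its C3H/HeJ replicate 1), from 16 to 180 in the hypothalamus (lowest without its C3H/HeJ replicate 2), from 53 to 448 in the pag (highest without its C3H/HeJ replicate 2) and from 464 to 1078 in the pituitary gland (lowest without its DBA/2J replicate 1). Opposite directions ran from 54 (without replicate 1 of the DBA/2J hypothalamus) to 219, and the F test from 1157 (without replicate 1 of the DBA/2J pituitary gland) to 2508. With a replicate block, 1802 were higher and 1976 lower in the mean, and 137 higher and 119 lower in all 5 regions, and no count moved by over 1.5 times. Within a region, same-numbered arrays correlated between -0.15 and 0.09 in their deviations. These values cannot show whether arrays of different regions came from the same mice, which was not tested.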

Other observations

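Called genes were not spread evenly along the chromosomes. Of 17800 genes placed by the annotation, 1680 (9.45%) had their brightest probe set called in the mean, from 4.62% on chromosome X to 14.6% on chromosome 3. Runs of 20 neighboring genes, a length chosen after the values were seen, held at most 11 called genes, in 8 overlapping windows. On chromosome 17 the run from Zfp51 to Zfp213 held 11, of which 10 were higher in C3H/HeJ, and on chromosome 7 the run from Zfp790 to Sdhaf1 held 11, all higher. On chromosome 1 the run from Mael to Uhmk1, which includes Rgs5 and Mgst3, held 8 lower and 3 higher, and on chromosome 11 the run from Psme4 to Hba-a2 held 7 lower and 4 higher. Of 335 genes with Zfp symbols, most of which encode zinc finger proteins, 35 were higher and 15 lower (14.9%), against 683 higher and 997 lower over all genes. No test was made of these runs, and zinc finger genes resemble each other in sequence, so that signals may not belong to 1 gene.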
